A study of Mus musculus with 15 samples.

Results

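The 89 genes described here encode the proteins of the cytosolic ribosome, in mouse regulatory T cells (Tregs, which keep other immune cells in check and are defined by Foxp3). They are the rows of the deposited count table whose gene symbol, matched to the row's Ensembl ID, has the form Rpl or Rps followed by a number, with the letters or digits that name variant forms, together with Rplp0, Rplp1, Rplp2 and Rpsa. Ribosomal S6 kinases and rows named as copies (symbols that hold -ps) were left out. Of the 45706 rows of the table, 53 of the 89 genes belong to the large subunit and 36 to the small one. The symbol rule also takes in 4 genes whose transcript is annotated as a processed pseudogene (Rpl6l, Rps12l1, Rps3a2 and Rps3a3) and 1 annotated as a processed transcript (Rps4l).

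Foxp3+ T cells were sorted from adult C57BL/6 mice of the line named RelB-dDC and from littermate controls, all of which carried a Foxp3 reporter, and their RNA was sequenced in bulk. The labels do not spell out the line's name, and dDC is used here as they write it. There were 15 libraries in 6 groups: spleen with 3 control and 3 dDC libraries, thymus with 3 control and 2 dDC, and peritoneal cavity with 2 control and 2 dDC. Control libraries are marked wt or ctr in the labels, which do not say whether the libraries of a group came from separate animals, so p-values measure the spread between these libraries only. Each library held 15714286 to 24332044 counts. Foxp3 was present in every library, between 178.6 and 326.9 CPM (counts scaled to a common library size, with the TMM factors of edgeR, its trimmed mean of M-values). The summed level of 8 Treg and T cell genes lay between 4889 and 7482 CPM in all libraries. Markers of other cells were present as well and are given beside the results they move with. In bulk RNA, fewer cells of a type and less RNA per cell cannot be told apart.

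A ribosome is built from ribosomal RNA and a fixed set of proteins, most of them present once in each particle, so their genes are a standard case of coordinated expression. In vertebrates nearly all of their mRNAs begin with a cytidine followed by an unbroken row of pyrimidines, the 5′ terminal oligopyrimidine (TOP) motif, through which mTORC1 and the RNA-binding protein Larp1 set their translation. Quiescent T cells hold few ribosomes and make many more on activation, and Tregs depend on mTORC1 activity. Many of these genes have left reverse-transcribed copies in the mouse genome, most of them processed pseudogenes, and short reads cannot always be assigned to one of them.

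Promoter windows show the runs of C and T around the annotated starts of these genes. RefSeq start sites on GRCm38.p6 were found for 64 of the 89 genes, with 76 windows. The windows below cover 20 bases before and 10 bases from the annotated start, 5′ to 3′ on the gene's strand, with capitals for the longest run of C or T that reaches within 10 bases of the start. They are shown because Rpl14 is one of the genes that passed the test below and Rpl4 is among the most highly counted per kilobase. Rpl22 and Rpl22l1 are a pair of alternative subunits, and Rpl5 and Rps3a1 are genes with short runs by this measure. The positions are chr9:120571497-120571526 (Rpl14, plus strand), chr9:64173367-64173396 (Rpl4, plus), chr3:28805488-28805517 (Rpl22l1, plus), chr4:152325706-152325735 (Rpl22, plus), chr5:107900508-107900537 (Rpl5, plus) and chr3:86142659-86142688 (Rps3a1, minus).
Rpl14: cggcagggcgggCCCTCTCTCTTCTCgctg
Rpl4: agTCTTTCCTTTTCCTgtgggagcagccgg
Rpl22l1: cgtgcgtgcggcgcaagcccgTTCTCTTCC
Rpl22: ccgacttcgCCCTgggaaaagcaatagctg
Rpl5: ctctttctcacgtcgCTTgcgtgctggtgg
Rps3a1: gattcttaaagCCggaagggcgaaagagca
The run was 14 bases long in Rpl14 and Rpl4 and 10 in Rpl22l1, against 4 in Rpl22, 3 in Rpl5 and 2 in Rps3a1. A run of C or T in such a window is not in itself a TOP motif, since the base at which the mRNA starts was not measured here, and the run of Rpl4 lies before its annotated start. The run of Rpl22l1 reaches the end of its window, and Rpl22 has another annotated start, with a run of 5. Over the 76 windows of ribosomal protein genes, 39.5% had a run of at least 8 and 30.3% one of at least 10. Over all 32851 windows of the table the shares were 13.7% and 7.0%. An annotated start can lie some bases away from the start used in these cells, and runs that do not reach within 10 bases of it were not counted. The Rpl5 window opens with such a run, longer than the one in capitals. In the longer windows of 250 bases before to 50 after the start, read on both strands, CGGAAG stood in 60.5% of the ribosomal protein windows and in 16.9% of all windows. CTTTCC stood in 50% against 26.6%, and AAGATGGC in 10.5% against 2.7%. CTTTCC can overlap a run of C or T on the gene's strand.

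The second set of sequences shows why counts of these genes need care. Rps3a1 encodes eS1, a protein of the small subunit, and Rps3a2 and Rps3a3 are pseudogene copies of it on chromosomes 14 and 13 that fall under the same symbol rule. A stretch of 60 bases of each transcript is given, bases 221 to 280 of the longest reading frame of Rps3a1, and capitals mark a difference from Rps3a1.
Rps3a1: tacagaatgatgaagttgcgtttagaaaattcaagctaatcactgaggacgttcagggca
Rps3a2: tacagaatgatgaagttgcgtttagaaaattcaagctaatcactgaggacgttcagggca
Rps3a3: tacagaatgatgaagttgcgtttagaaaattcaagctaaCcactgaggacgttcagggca
Rps3a2 had 0 differences over this stretch and Rps3a3 had 1. Of the 50-base stretches of the Rps3a2 transcript, 76.7% were found in Rps3a1 too, and of those of Rps3a3, 49.6%. The table gave Rps3a1 a mean of 559.9 CPM over the 15 libraries, Rps3a2 128.1 CPM and Rps3a3 100.2 CPM. The sources used here do not say how reads with several equally good places were counted. The 3 values therefore divide reads that the sequence alone often cannot assign.

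Counts in ribosomal protein genes made up a small and steady share of each library. The share lay between 2.202% in thymus control 3 and 3.149% in peritoneal control 1. By group it was 2.641 ± 0.123% (SD, n = 3) in spleen controls, 2.547 ± 0.0933% (n = 3) in spleen dDC, 2.474 ± 0.247% (n = 3) in thymus controls, 2.560 ± 0.151% (n = 2) in thymus dDC, 2.976 ± 0.244% (n = 2) in peritoneal controls and 2.690 ± 0.211% (n = 2) in peritoneal dDC. Both peritoneal control libraries, at 3.149 and 2.804%, lay above all 11 libraries of spleen and thymus, while peritoneal dDC 1 lay within their range at 2.541% and peritoneal dDC 2 above it at 2.840%. These shares are a description and were not tested. The large subunit's genes together held 1.162 to 1.287 times the counts of the small subunit's in the 15 libraries, and that ratio's lowest and highest values both occurred in peritoneal libraries.

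**Figure D1:**
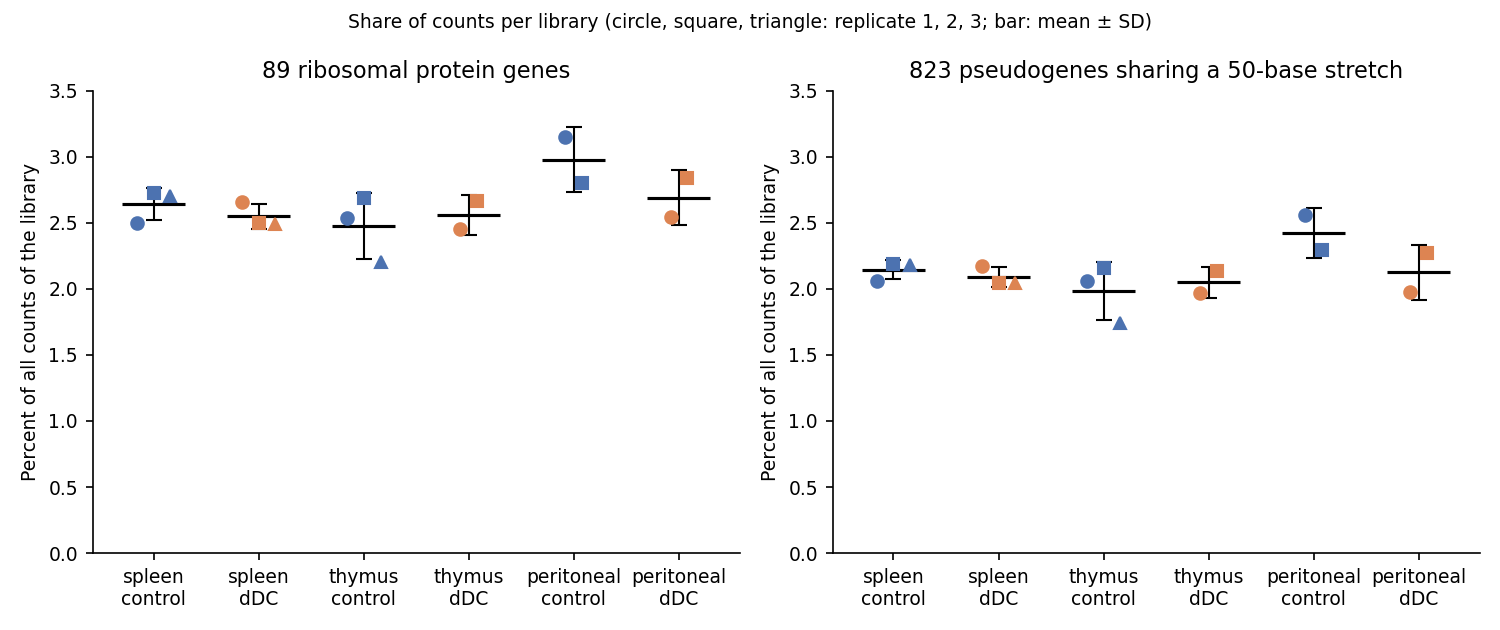
Percent of all counts of a library that fell in the 89 ribosomal protein genes (left) and in pseudogenes that share at least 1 stretch of 50 bases with them (right), by group of tissue and genotype, with controls in blue and dDC in orange. Points are libraries and bars are mean ± SD; the genes range from 2.202 to 3.149% and the pseudogenes from 1.739 to 2.557%, with thymus control 3 lowest and peritoneal control 1 highest in both panels.

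Pseudogenes outside the 89 held almost as many counts as the genes themselves. The table has 823 rows annotated as pseudogenes whose sequence shares a 50-base stretch with a ribosomal protein transcript, and they received 1.739 to 2.557% of the counts of a library. Genes and copies together came to between 3.942 and 5.706%. Of the 86 genes tested, 82 had such a copy in the table, and for 45 the copies together had more CPM than the gene. Rpl10a, whose protein forms the mobile L1 stalk of the large subunit, had a mean of 46.68 CPM while its 3 copies had 410.6 CPM. For Rpl24 the gene had 7.791 CPM and 6 copies had 277.0 CPM, and Rpl23a, which lies at the exit of the peptide tunnel, had 7.54 CPM against 206.9 CPM in 16 copies. Rpl24 and Rpl23a were chosen after their values were seen. The share of 50-base stretches that occurred in no other gene was 11.9% for Rpl10a, 18.3% for Rpl24 and 14.3% for Rpl23a.

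Levels per kilobase of exon spanned a range from 0.6339 CPM per kb for Rpl39l to 3112 for Rpl32. Among the highest were Rpl32 (3112 CPM per kb), Rpl8 (1932), Rpl4 (1559) and Rplp1 (1131). Rpl8 lies beside the catalytic centre of the large subunit, Rpl4 lines the peptide tunnel, and Rplp1 is part of the stalk that recruits elongation factors. The 6 lowest of the tested genes were Rpl39l (0.6339 CPM per kb), Rpl31 (3.985), Rps4l (4.084), Rpl36a (4.769), Rpl12 (6.718) and Rpl5 (7.405). Rpl31 sits at the tunnel exit and Rpl12 at the base of the stalk, and Rpl5 carries the 5S ribosomal RNA. Little of the sequence is unique in Rpl31 (30% of the 50-base stretches), Rpl36a (14.5%) and Rpl5 (6.2%), whereas Rpl12 has 50.6% and Rpl39l 100%.

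The share of a transcript that is unique moved with the measured level across genes. Over the 86 tested genes, Spearman's rho between the percent of unique 50-base stretches and CPM per kb was 0.37, and with 75-base stretches it was 0.46. Without the 6 tested genes named as the alternative form in a pair (such as Rpl39l, whose sequence is fully unique and whose level is near 0), rho was 0.47 and 0.57 over 80 genes. The relation was weaker with levels per kilobase of the transcript in which uniqueness was read. There rho was 0.31 and 0.4 over the 86 genes, and 0.42 and 0.52 over the 80. The points share libraries, depth and gene families and are not independent, so no p is given. Genes with 0 to 20% unique stretches had a median of 22.23 CPM per kb (n = 19), those with 20 to 50% 46.97 (n = 27), those with 50 to 80% 120.0 (n = 28) and those with 80 to 100% 96.63 (n = 12). Levels of different ribosomal protein genes in these data are therefore not read as amounts of mRNA, and the tests below set each gene against itself. Percentages within pairs of genes, given below, do not, and they are shares of counts per kilobase only.

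**Figure D2:**
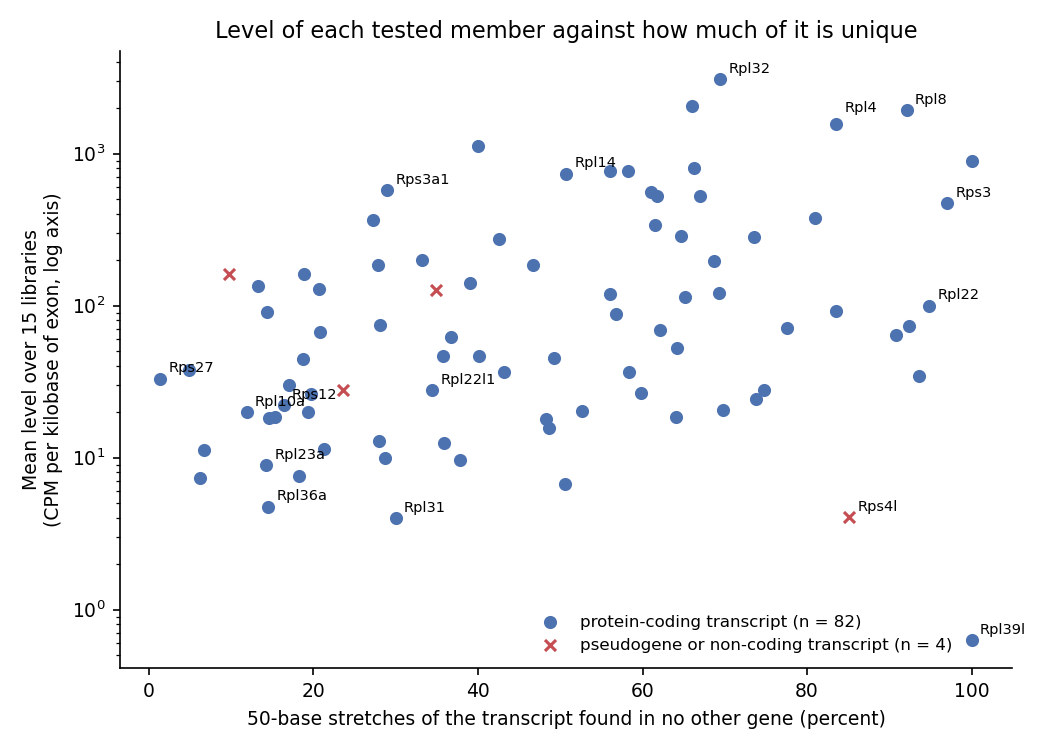
Mean level over the 15 libraries (CPM per kilobase of exon, log axis) of each of the 86 tested ribosomal protein genes against the percent of 50-base stretches of its transcript found in no other gene. Dots are protein-coding and crosses are pseudogene or non-coding transcripts; genes with under 20% unique sequence, such as Rpl36a and Rps27, lie low (median 22.23 CPM per kb), and Rpl39l, fully unique, lies lowest of all at 0.6339.

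As a set, these genes varied less between libraries of a group than the other genes did. Between libraries of a group, the median SD of log2 CPM was 0.169 for the 86 genes and 0.688 for all 18423 tested genes. Much of that gap goes with level, so the genes over 100 CPM were compared: 0.146 for 45 ribosomal protein genes and 0.241 for 2189 other genes. That cut is a floor and does not match the sets for level. Rpl29, named here for its value, had the smallest, 0.064, and Rpl8 followed at 0.077. Rps4l (2.132) and Rpl39l (1.875), both near 0 counts in several libraries, had the largest, followed by Rpl36a (0.573) and Rpl9 (0.562). Over the 6 groups the means of a gene over 100 CPM differed by at most 0.551 on the log2 scale.

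Part of the remaining spread was shared within a library. In thymus control 3, the median deviation of the 45 genes over 100 CPM from their group's mean was -0.152 on the log2 scale, while the other genes over 100 CPM deviated by 0.032. In the 2 peritoneal dDC libraries it was -0.11 and 0.11, where the other genes had 0.014 and -0.014. In spleen the values lay between -0.055 and 0.078. The ribosomal protein genes and the other genes deviated in opposite directions in thymus controls 2 and 3, both peritoneal dDC libraries and spleen dDC 3. Groups of 2 or 3 libraries average over few such shifts.

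**Figure D3:**
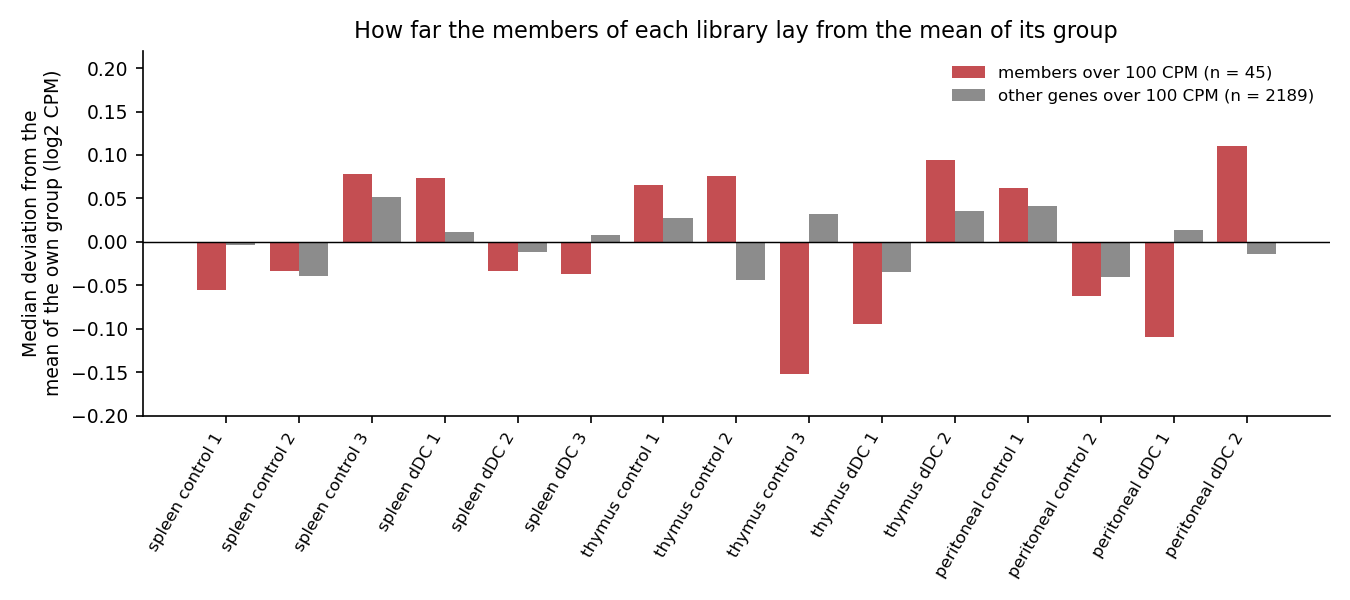
Median deviation (log2 CPM) of each library from the mean of its own group, for ribosomal protein genes over 100 CPM (red, n = 45) and for the other genes over 100 CPM (grey, n = 2189). Thymus control 3 has the longest red bar at -0.152, and the 2 peritoneal dDC libraries have red bars of equal length and opposite sign, as they must in a group of 2.

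Several ribosomal protein genes have a paralog named as an alternative form, and 8 such pairs were followed. The paralog in 1 of them, Rps4l, is annotated as a processed transcript. None of the 8 shared a single 50-base stretch within the pair, although members of a pair can share sequence with other copies. Rpl22 encodes an RNA-binding large-subunit protein that alpha-beta T cells need for their development, and it holds down its paralog Rpl22l1. Rpl22 stood at 291.8, 323.3 and 294.8 CPM in the spleen controls, 312.7, 271.1 and 241.2 in the thymus controls, and 333.0 and 261.9 in the peritoneal controls. In the dDC libraries it stood at 339.1, 261.9 and 258.5 CPM in spleen, 329.7 and 274.0 in thymus, and 255.6 and 332.8 in peritoneal cavity. The groups overlapped throughout. For dDC against control over the 3 tissues its log2 difference was 0.01 (SE 0.101, adjusted p = 1), with a 95% interval from -0.21 to 0.23.

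Rpl22l1 varied more. It stood at 48.34, 61.37 and 38.08 CPM in spleen controls, 64.09, 56.55 and 58.09 in thymus controls, and 68.05 and 68.48 in peritoneal controls. The dDC libraries had 58.66, 47.87 and 45.35 CPM in spleen, 59.59 and 51.20 in thymus, and 45.88 and 55.39 in peritoneal cavity. In the peritoneal cavity both dDC values lay under both control values, with a log2 difference of -0.43 (SE 0.235, adjusted p = 0.805). Per kilobase, Rpl22l1 made up 19 ± 2.93% (n = 3) of the pair in spleen controls, 24.2 ± 1.65% (n = 3) in thymus controls and 25.4 ± 3.32% (n = 2) in peritoneal controls, and 20.2 to 21.2% on average in the 3 dDC groups. No difference of either gene passed the test in any comparison.

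Rps27l, a paralog of Rps27 that p53 is known to induce, had the smallest p of the genes that were higher in dDC over the 3 tissues. It stood at 48.79, 45.18 and 71.66 CPM in spleen controls against 60.11, 73.85 and 65.31 in spleen dDC, at 51.07, 57.20 and 46.02 in thymus controls against 70.82 and 54.93 in thymus dDC, and at 57.19 and 49.29 in peritoneal controls against 56.33 and 67.50 in peritoneal dDC. The groups overlapped in all 3 tissues. The average log2 difference was 0.26 (SE 0.130, 1.20-fold, adjusted p = 0.581), which is within the spread between libraries. Per kilobase Rps27l held 60.4 to 73.2% of its pair in the group means, but Rps27 itself has only 1.4% unique stretches, so that ratio mixes 2 measurements of unlike quality.

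In each of the other pairs 1 gene held most of the sum. Rpl36al, an autosomal copy of the X-linked Rpl36a, held 90.2 to 95.2% of its pair in the group means, with the same caution for Rpl36a. Rpl7l1, which acts in the assembly of the large subunit, held 18.3 to 28.6% of the sum with Rpl7. The muscle and heart form Rpl3l had a single read in 1 of the 15 libraries and 0 in the other 14. The testis forms Rpl10l (0 to 12 reads) and Rpl39l (0 to 51 reads) were at 0 in several libraries of both genotypes, and Rps4l ranged from 0 to 271 reads. Rpl3l, Rpl10l and the pseudogene Rps12l1 (0 to 2 reads) did not pass the filter on low counts, which left 86 genes for the tests. The log2 differences of Rpl39l, such as 5.97 in thymus dDC against spleen dDC (SE 2.849, adjusted p = 0.646), rest on few reads: it had 51 and 4 reads in thymus dDC and 1, 0 and 0 in spleen dDC.

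**Figure D4:**
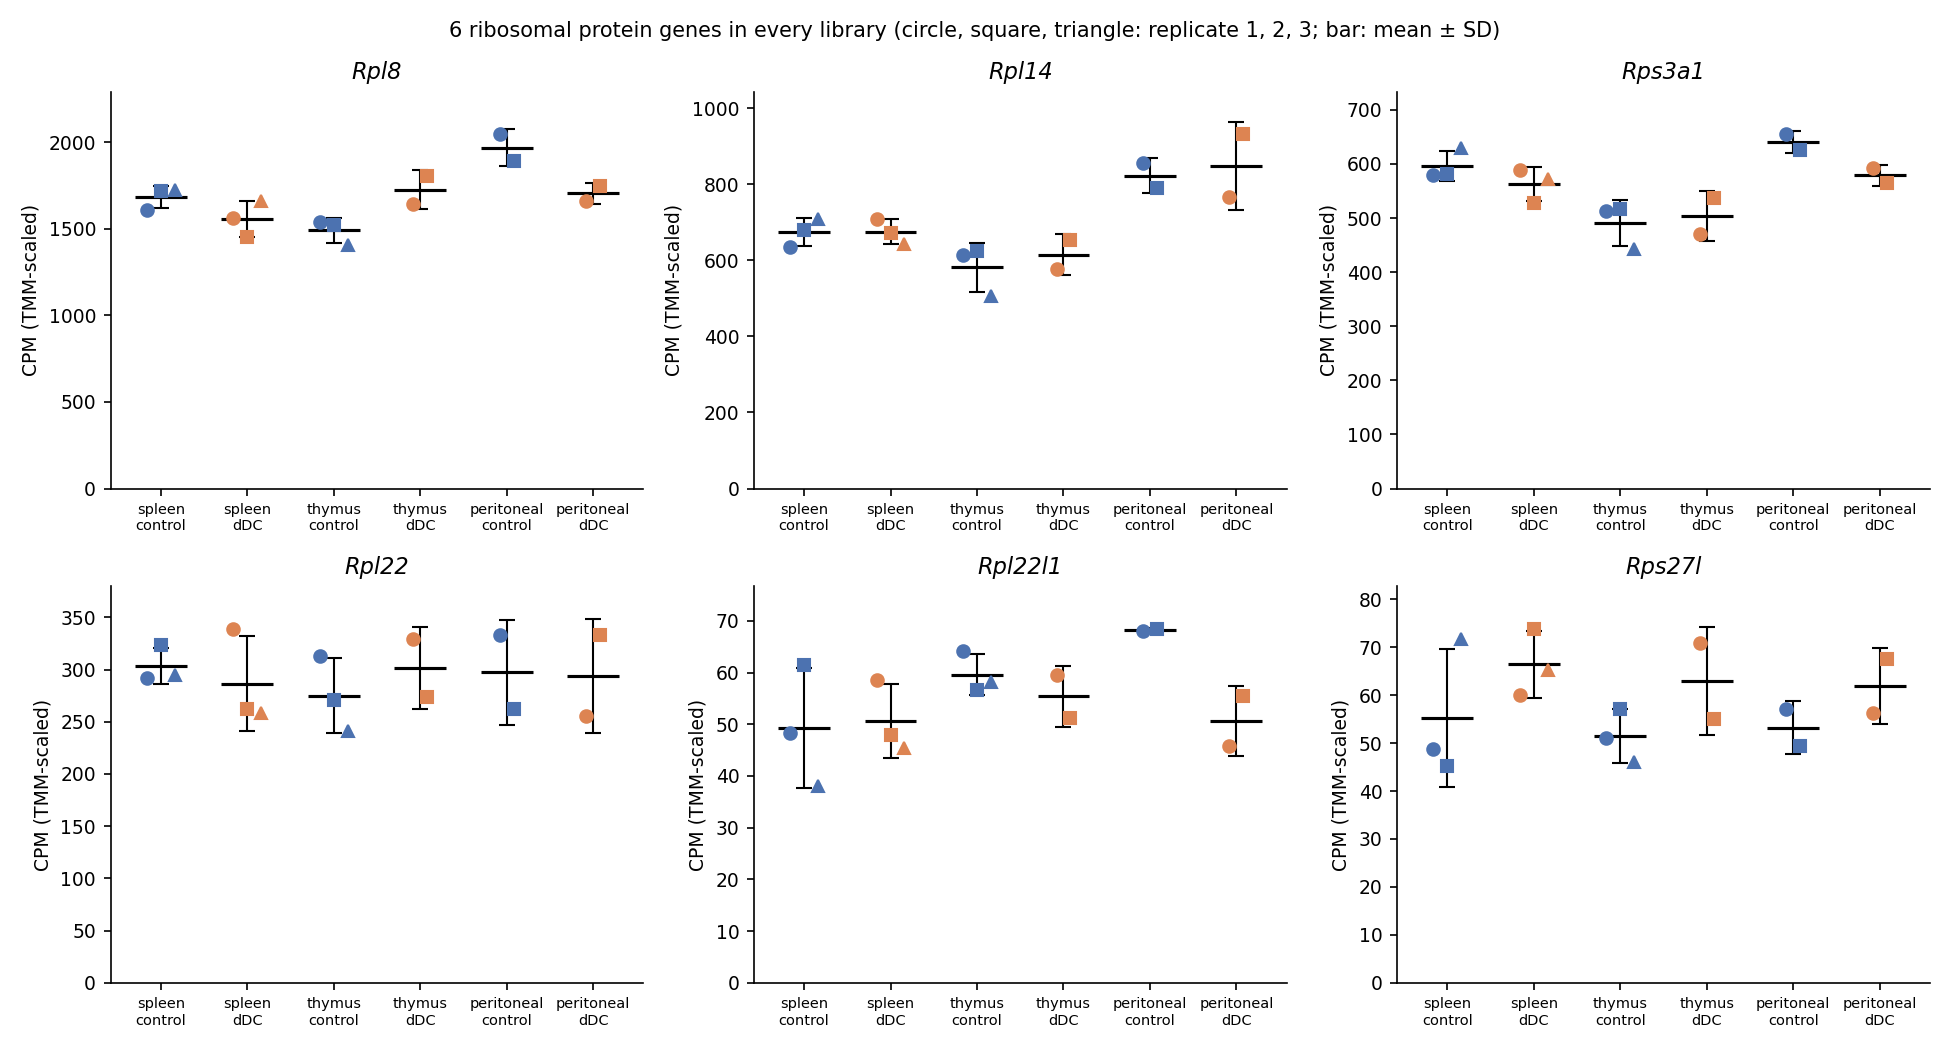
CPM (TMM-scaled, axes from 0) of Rpl8, Rpl14, Rps3a1, Rpl22, Rpl22l1 and Rps27l in every library by group, with controls in blue and dDC in orange; bars are mean ± SD. In the upper row the peritoneal libraries of Rpl14 stand above those of spleen and thymus in both genotypes, for Rpl8 the peritoneal controls, at 1893 and 2044 CPM, do so, and for Rps3a1 peritoneal libraries stand above the thymus libraries of the same genotype; in the lower row controls and dDC overlap within each tissue, except for Rpl22l1 in the peritoneal cavity.

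The first comparison asks whether Tregs of dDC mice differ from those of littermate controls in these genes. In spleen, 0 of the 86 genes passed in edgeR's quasi-likelihood test (adjusted p under 0.05 over all tested genes), and 0 had an unadjusted p under 0.05, against 4.27% of all genes. Over all genes, 0% passed too. The median log2 difference was -0.04, against -0.01 over all genes, and 28 of 86 were positive. Without spleen dDC 3 the median was -0.01. The smallest p upward belonged to Rps27l (log2 0.27), and downward to Rpl5 (-0.45) and Rps27a (-0.44), the last a fusion of a small-subunit protein with ubiquitin. Each of these had an adjusted p of 1.

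Rpl5 carries the 5S ribosomal RNA into the large subunit and, with Rpl11, restrains Mdm2 when ribosome assembly fails. Its values in spleen were 31.84, 26.12 and 28.49 CPM in controls and 22.49, 23.49 and 17.19 in dDC. In thymus they were 35.63, 33.32 and 40.45 CPM in controls and 27.93 and 21.26 in dDC, and in peritoneal cavity 36.30 and 33.13 in controls and 31.15 and 26.61 in dDC. In each tissue the dDC values lay under all control values. Over the 3 tissues the log2 difference was -0.43 (SE 0.137, 0.743-fold, unadjusted p = 0.00859), and it did not pass after adjustment (adjusted p = 0.351). Only 6.2% of the gene's 50-base stretches are unique, and its 10 copies in the table had 283.2 CPM against 29.03 CPM in the gene.

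In thymus, 0 of 86 genes passed (0% of all genes) and 3 had an unadjusted p under 0.05, 3.49% against 6.57% of all genes. The median log2 difference was 0.07 against -0.03 over all genes, and 60 of 86 genes were positive. Rpl8 (log2 0.21, SE 0.083) and Rps15 (0.28), a small-subunit head protein, had the smallest p upward. Rpl5 (-0.57, SE 0.240) and Rpl27 (-0.91, SE 0.397) had the smallest p downward. The adjusted p was 0.748 for each of the 4. Thymus control 3, the library with the lowest share of ribosomal protein counts, is 1 of the 3 controls here. When each library in turn was left out, the median lay between 0.00 (without thymus dDC 2) and 0.12 (without thymus control 2). Summed B cell markers were 1132 to 1442 CPM in controls and 1639 and 1652 in dDC, with 3 of 8 genes positive. Erythroid markers were 3.16 to 398.5 CPM in controls and 1.753 and 0.8836 in dDC, with 0 of 7 positive. In both lists 0 genes passed, and their part was not tested.

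In peritoneal cavity, 0 of 86 genes passed, where 0.00543% of all genes did (1 gene), and 5 of 86 had an unadjusted p under 0.05, 5.81% against 6.36% of all genes. The median log2 difference was -0.18 against 0.00 over all genes, and 73 of 86 genes were negative. The median was -0.25 without peritoneal dDC 2 and -0.09 without peritoneal dDC 1. Both dDC libraries lay under both controls for 31 genes and above both for 1; over all genes the shares without overlap were 15.4% lower and 18.7% higher. Other lists moved beside these genes. The summed level of the 8 Treg and T cell genes was 5575 and 4889 CPM in the controls and 7091 and 6354 in dDC, without overlap, with 6 of 8 positive and 0 that passed. That of 10 macrophage and dendritic cell genes was 86.73 and 1735 CPM in the controls and 180.2 and 313.3 in dDC, with 0 of 10 positive and 0 that passed. Their part in the result was not tested. The gene above both controls was Rpl7l1 (log2 0.49, SE 0.269, adjusted p = 0.805), with 132.9 and 119.3 CPM in controls and 144.1 and 210.2 in dDC. The smallest p downward belonged to Rpl7 (-0.30, SE 0.114, adjusted p = 0.717), a large-subunit protein, and Rpl36 (-0.60, SE 0.243, adjusted p = 0.742). Rps14, of the small-subunit platform, came next upward (0.19, SE 0.203, adjusted p = 0.928), and without peritoneal control 2 its sign turned (-0.04).

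Over the 3 tissues with equal weight, 0 of 86 genes passed, where 0.076% of all genes did (14 genes). With an unadjusted p under 0.05 there were 3 (3.49%, against 9.31% of all genes), all lower in dDC: Rpl5 (above), Rpl10a (-0.45, SE 0.157, adjusted p = 0.413) and Rpl3 (-0.21, SE 0.090, adjusted p = 0.503), whose protein reaches to the catalytic centre. Upward the smallest p belonged to Rps27l and Rplp1 (0.17, adjusted p = 0.630). The median was -0.05 against -0.02 over all genes, and without peritoneal dDC 1 it was -0.02. DESeq2 and limma-voom also called 0 genes in each of these 4 comparisons.

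The intervals show what size of difference the data leave possible. The 95% interval of the average dDC difference lay wholly within 0.5 on the log2 scale in either direction for 65 of 86 genes, and within 1 for 83. Of the 45 genes over 100 CPM it lay within 0.5 for 44. Within a single tissue fewer genes were bounded in this way: 52 of 86 in spleen, 40 in thymus and 31 in peritoneal cavity lay within 0.5. For Rpl8 it ran from -0.14 to 0.07. Whether the dDC difference itself differed between tissues was tested as well. It did so for 0 of 86 genes in each of the 3 pairs of tissues (0% of all genes in each), and the numbers with an unadjusted p under 0.05 were 1 for thymus against spleen, 0 for peritoneal cavity against spleen and 1 for peritoneal cavity against thymus. Over all genes the shares were 5.06, 4.89 and 5.72%. The gene was Rpl8 both times (0.32, SE 0.112, adjusted p = 0.965, and -0.42, SE 0.124, adjusted p = 0.840).

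**Figure D5:**
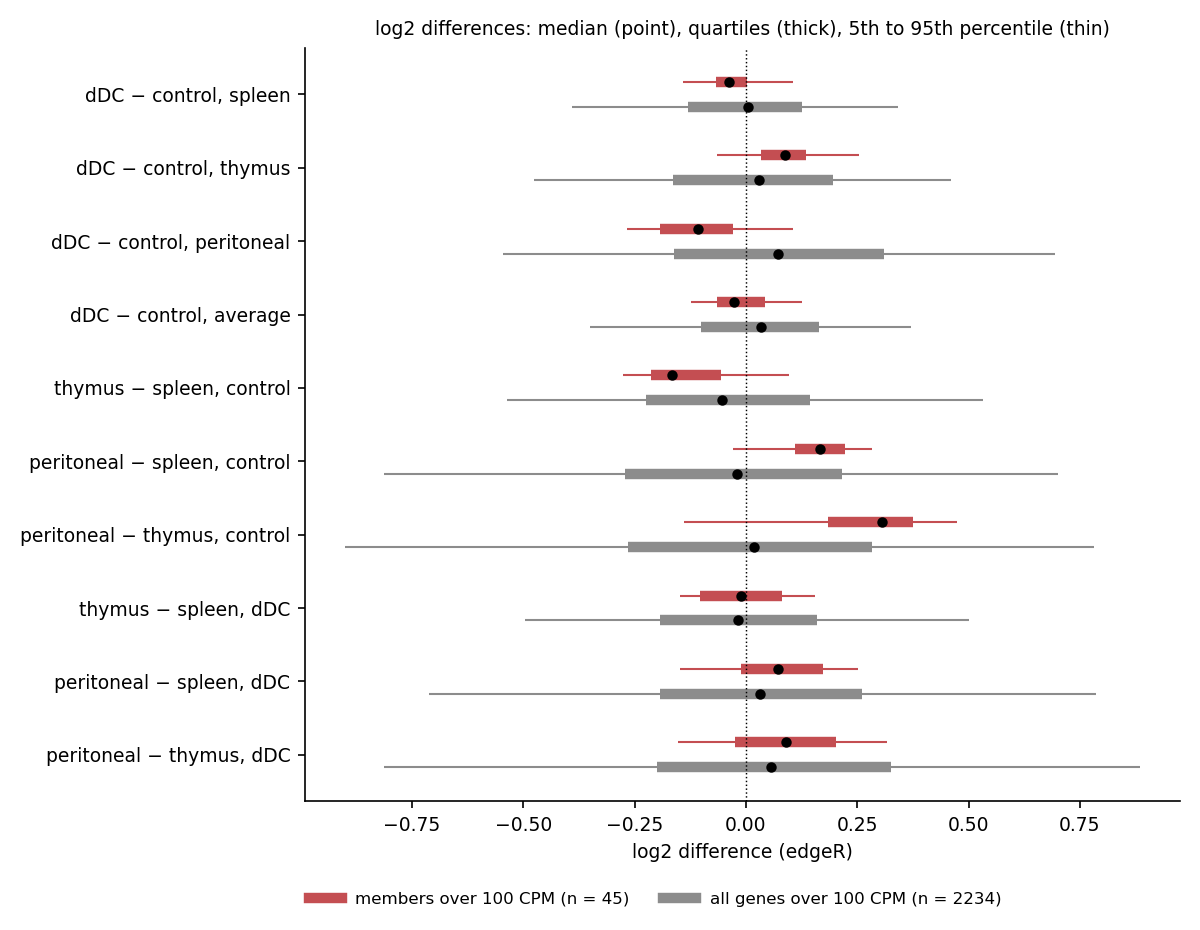
Distribution of log2 differences over the 45 ribosomal protein genes above 100 CPM (red) and over all 2234 genes above 100 CPM (grey) in 10 comparisons: dot, median; thick bar, quartiles; thin line, 5th to 95th percentile. Red bars are shorter than grey ones throughout, and the red median is farthest from 0 for peritoneal cavity against thymus in controls, at 0.31.

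The tissue comparison in controls gave the only genes that passed. In controls, Rpl8 and Rpl14 were 1.32 and 1.41 times as high in peritoneal as in thymic Tregs. They were the 2 of 86 genes that passed, both upward. That share is no higher than the 2.47% of all genes that passed (455 genes). The median of the 86 was 0.27 against -0.03 over all genes, and 71 of 86 were positive. Unadjusted p was under 0.05 for 28 of them, 32.6% against 14.1% of all genes. Both peritoneal controls lay above all 3 thymus controls for 44 genes and under them for 3, where the shares over all genes were 14.1% and 14.3%. Here and in the other comparisons, such shares are not matched for level or spread, and genes that shift together are not separate observations. Over the 45 genes above 100 CPM the median was 0.31, with 41 positive. Over all genes above 100 CPM it was 0.02, with 52.1% positive.

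Rpl8 (chr15:76904071-76906318, plus strand, in mm10) stood at 2044 and 1893 CPM in the peritoneal controls and at 1541, 1524 and 1407 in the thymus controls. The log2 difference was 0.40 (SE 0.083, adjusted p = 0.0258). Its transcript has 92.1% unique stretches, and its 1 copy in the table had 5.974 CPM. The spleen controls had 1608, 1715 and 1724 CPM, between the other tissues, and the spleen dDC libraries 1560, 1450 and 1661. In dDC it had 1659 and 1748 CPM in peritoneal cavity and 1645 and 1807 in thymus, which overlap, with a difference of -0.02 (SE 0.092, adjusted p = 0.985). The test of the genotype difference in this contrast, given above, did not pass.

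Rpl14 (chr9:120571517-120574653, plus strand), a large-subunit protein with no bacterial counterpart, stood at 855.0 and 790.3 CPM in peritoneal controls and at 613.6, 624.6 and 507.1 in thymus controls. The log2 difference was 0.50 (SE 0.117, adjusted p = 0.0467). In dDC it stood at 766.6 and 931.2 CPM in peritoneal cavity and 576.7 and 653.1 in thymus, again without overlap, with a difference of 0.47 (SE 0.130, adjusted p = 0.132). Of its stretches 50.7% are unique, and 1 copy in the table had 936.3 CPM, more than the gene. Spleen had 634.3, 680.5 and 708.3 CPM in controls and 709.2, 672 and 644.2 in dDC, under every peritoneal library. With the reads of rows named -ps added to each gene, the difference in controls was 0.54 (adjusted p = 0.0264).

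Rps3a1, the small-subunit gene printed above, came near the threshold. It had 654.5 and 626.5 CPM in peritoneal controls and 513.3, 517.1 and 441.9 in thymus controls, a log2 difference of 0.38 (SE 0.100, adjusted p = 0.0719). In dDC it had 593 and 565.7 CPM in peritoneal cavity and 470.8 and 536.5 in thymus, a difference of 0.20 (SE 0.110, adjusted p = 0.536). Peritoneal cavity and thymus did not overlap in either genotype. Spleen had 579.8, 581.1 and 629.2 CPM in controls and 588.1, 528.7 and 572.2 in dDC, which overlapped with the peritoneal libraries of the same genotype. Downward, the smallest p belonged to Rps26, at the mRNA exit of the small subunit (-0.23, adjusted p = 0.445), and Rpl27 (-0.70, adjusted p = 0.449).

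The calls of Rpl8 and Rpl14 were close to the threshold and rested on each of the 5 libraries of the comparison. Neither passed when peritoneal control 1 or 2 or thymus control 1, 2 or 3 was left out, with log2 differences between 0.35 and 0.46 for Rpl8 and between 0.42 and 0.56 for Rpl14. Rpl14 also missed the threshold without any 1 of the spleen or thymus dDC libraries, where Rpl8 passed. Without peritoneal control 2, Rps3, which lines the mRNA entry channel, passed instead (0.65, adjusted p = 0.0237); with it the value was 0.38 (adjusted p = 0.242), and Rps3 had 2832 CPM in peritoneal control 1 and 1862 in peritoneal control 2. DESeq2 called 15 of the 86 genes and limma-voom 3, all upward. The shares of all genes that these tools called are not given here, so the counts have no baseline. Those of DESeq2 include Rps3a1 and its copies Rps3a2 and Rps3a3, which share sequence and are not separate observations.

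Markers of other cells moved with the same contrast. The summed level of 8 B cell genes was 3938 and 6782 CPM in the peritoneal controls and 1132 to 1442 CPM in the thymus controls, where Ms4a1 and Pax5 were at 0 in thymus control 1 and Cd22 in thymus control 3. Ighm alone made up 2278 and 3520 CPM in the peritoneal controls and 1055 to 1391 in the thymus controls. The summed level of 10 macrophage and dendritic cell genes was 86.73 and 1735 CPM in the peritoneal controls and 17.06 to 53.27 in the thymus controls. Lyz2 was at 0 in thymus control 3 and Adgre1 in thymus controls 1 and 3. Peritoneal control 1 had less of both kinds of marker RNA than peritoneal control 2, and Rpl8, Rpl14 and Rps3a1 were higher in it. The ribosomal protein genes over 100 CPM were higher in it as a whole, with a median deviation of 0.062 against -0.062. Other genes over 100 CPM had 0.041 and -0.041. With 1 library set against 1, marker RNA and a shift of the whole library cannot be told apart. Of the 10 thymocyte markers 8 were tested, with 3 positive and 1 that passed, Rag1, lower in peritoneal cavity, while their sums overlapped, at 1050 and 1067 CPM against 977.2 to 1156. The Treg and T cell genes summed to 5575 and 4889 CPM against 6598 to 7482, and 3 of 8 passed, all lower in peritoneal cavity: Ikzf2 (-0.96), Ctla4 (-0.85) and Il2ra (-0.96). The part of these cells in the result was not tested.

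The comparison of peritoneal with spleen controls shares the peritoneal controls with the one above. None of the 86 genes passed (0 of 86 in edgeR, DESeq2 and limma-voom, against 0.792% of all genes in edgeR), and 10 had an unadjusted p under 0.05, 11.6% against 10.6% of all genes. The median was 0.18 against -0.03 over all genes, with 75 of 86 positive, and it was 0.112 without peritoneal control 1 and 0.265 without peritoneal control 2. The peritoneal controls lay above all spleen controls for 36 genes and under them for 2, where the shares over all genes were 11.8% and 13.2%. Rpl21 (0.39, adjusted p = 0.307) and Rpl8 (0.23, adjusted p = 0.335) had the smallest p upward, and Rpl7l1 (-0.58, adjusted p = 0.434) and Rpl27a (-0.20, adjusted p = 0.762) downward. Summed B cell markers were 3016 to 4262 CPM in the spleen controls, so here they overlapped with peritoneal control 1. Erythroid markers were 2957 to 8056 CPM in the spleen controls and 9.566 and 100.4 in the peritoneal ones, and their part was not tested.

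Thymus against spleen controls likewise gave 0 of 86 with each of the 3 tools, where 0.603% of all genes passed in edgeR, and 4 had an unadjusted p under 0.05, 4.65% against 9.79% of all genes. The median was -0.06 against 0.00 over all genes, and it was -0.12 without thymus control 2 and -0.004 without thymus control 3. Rpl27 (0.84, adjusted p = 0.469) and Rpl13 (0.66, adjusted p = 0.556) had the smallest p upward, and Rps3a1 (-0.28, adjusted p = 0.277) with its copy Rps3a2 (-0.29, adjusted p = 0.396) downward. The last 2 are not separate observations, given the shared sequence printed above. Over the 45 genes above 100 CPM the median was -0.17, with 8 positive, against -0.05 over all genes above 100 CPM, of which 43.4% were positive. Summed B cell markers were 1132 to 1442 CPM in thymus against 3016 to 4262 in spleen, erythroid markers 3.16 to 398.5 against 2957 to 8056, and macrophage and dendritic cell markers 17.06 to 53.27 against 110.3 to 167.4. The groups did not overlap for any of these 3 sums, and their part in the result was not tested.

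In dDC mice the medians of the tissue comparisons lay near 0. For peritoneal cavity against thymus, 0 of 86 passed in edgeR and limma-voom, where 1.35% of all genes passed in edgeR, and 5 had an unadjusted p under 0.05, 5.81% against 11.3% of all genes. The median was 0.04 against 0.02 over all genes, and it lay between -0.08 and 0.11 when each library was left out, below 0 without peritoneal dDC 2 or thymus dDC 1, and at -0.02 with library totals in place of TMM. Groups did not overlap for 14 genes upward and 10 downward, against 21.9% and 17% of all genes. DESeq2 called Rpl14 alone (0.46, adjusted p = 0.0261). Upward, Rpl14 had the smallest p, and downward Rps26 (-0.35, adjusted p = 0.346) and Rpl27a (-0.50, adjusted p = 0.373). The summed B cell markers were 4271 and 6698 CPM in peritoneal dDC and 1639 and 1652 in thymus dDC, and their part was not tested.

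For peritoneal cavity against spleen in dDC, 0 of 86 passed with each tool, where 0.906% of all genes passed in edgeR, and 2 had an unadjusted p under 0.05, 2.33% against 8.64% of all genes. Rpl14 had the smallest p (0.33, SE 0.117, adjusted p = 0.372). Downward the smallest p belonged to Rpl35a (-0.39, adjusted p = 0.690) and Rpl15 (-0.59, adjusted p = 0.779). Groups did not overlap for 17 genes upward and 6 downward, against 15% and 13.4% of all genes. The median was 0.05, and it was -0.06 without peritoneal dDC 2 and 0.00 with library totals. For thymus against spleen in dDC, 0 of 86 passed with each tool and 0 had an unadjusted p under 0.05, where 0.179% of all genes passed. The smallest p upward, after Rpl39l, belonged to Rpl8 (0.15, adjusted p = 0.689), and downward to Rpl15 (-0.79, adjusted p = 0.663) and Rps3a1 (-0.16, adjusted p = 0.728).

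Genes that work with these proteins were read from lists. Of the 3 further ribosome components, 0 passed in any comparison. They include Rack1, a scaffold on the small subunit, and Fau, which encodes a ribosomal protein fused to a ubiquitin-like domain. Rack1 came nearest, at 0.34 (SE 0.097, adjusted p = 0.103) for peritoneal cavity against thymus in controls. Of 18 translation factors and other mRNAs with a TOP motif, 1 passed in that contrast, where 2.47% of all genes did, Eef2, the factor that moves the ribosome along the mRNA (0.39, SE 0.077, adjusted p = 0.0208), with a list median of 0.14. Of 23 genes of mTORC1 and of TOP regulation, 1 passed there, Larp1, which binds the TOP motif (0.73, SE 0.173, adjusted p = 0.0477), with a list median of -0.10. Of 50 genes of ribosome assembly, 1 passed there, a share below that of all genes, Rcl1, of ribosomal RNA processing (-2.21, SE 0.517, adjusted p = 0.0467), with a list median of 0.12.

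Of 11 genes of the Myc network, 9 were tested. Mxd4, an antagonist of Myc, was lower in peritoneal cavity than in thymus (-1.51, SE 0.224, adjusted p = 0.00391) and than in spleen (-1.09, SE 0.220, adjusted p = 0.0466) in controls. It alone of the list passed in these contrasts, where 2.47% and 0.792% of all genes passed. Myc itself, which drives ribosomal protein genes, had a difference from spleen of 0.92 (SE 0.296, adjusted p = 0.258). The list median was -0.47 against thymus, with 4 of 9 positive, and 0.31 against spleen, with 5 of 9 positive. The part of these genes in the levels of ribosomal protein genes was not tested. Of the 77 tested genes of the mitochondrial ribosome, which is built from a separate set of proteins, 0 passed in any of the 13 comparisons. Their median for peritoneal cavity against thymus in controls was 0.03. For dDC against control over the 3 tissues, 0 genes of any of these lists passed, and the smallest p of the mTORC1 list belonged to Larp1 (-0.31, SE 0.101, adjusted p = 0.368).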

How the data were processed

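Per the labels' protocols, cDNA was made from a poly-dT primer by template switching, amplified for 12 cycles, sheared and amplified for 15 more, without strand marks or molecular identifiers. Reads were handled with bcl2fastq 2.19.1, GSNAP and featureCounts 1.6.0 on mm10, per the submitters' processing notes. The authors deposited raw counts per gene and library. Symbols were matched by Ensembl ID, for 45143 of 45706 rows, from a table of gene names. Where a gene overlaps an antisense gene, the counts do not separate them. Low counts were filtered by filterByExpr, and genes were fitted in edgeR 4.0.16 under R 4.3.3, over all 15 libraries with 1 mean per group, TMM factors and robust quasi-likelihood, 9 residual degrees of freedom before moderation and Benjamini-Hochberg adjustment over 18423 genes at 0.05. Unless another tool is named, tests are two-sided and from edgeR. Alternatives used DESeq2 1.42.0 and limma-voom 3.58.1. Scripts were tested on simulated data. Uniqueness was read from GENCODE transcripts, 1 per gene, and promoters from RefSeq. Intervals cover the spread between libraries. The genes and lists were chosen with earlier results of these data known. Named are the 8 pairs, in each comparison the called genes or the 2 smallest p in each direction, the 6 highest and 6 lowest per kilobase, up to 4 genes of each list, and Foxp3. Some genes that this rule takes in are not reported here.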

Additional observations from a re-analysis of the deposited data

How the results depend on the processing

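Each comparison was recomputed under 24 alternatives, 2 of which (only genes with at least 50% unique stretches, and only protein-coding genes) were chosen after seeing the data. In 11 of the 13 comparisons 0 genes passed under all of them. For peritoneal cavity against thymus in controls the count was 2, and it was 4 with DESeq2's size factors in edgeR, 1 with library totals only, 0 with no filter on low counts, 15 with DESeq2's own test, 4 with the reads of rows named -ps added, and 0 to 2 when each library was left out. For the same contrast in dDC it was 0, and 1 with DESeq2. The shares of all genes that passed under these alternatives are not given here, so the counts have no baseline. The cause was not tested. Rps14 in peritoneal dDC against control went from 0.19 to -0.04 without peritoneal control 2 and to 0.475 without peritoneal control 1. The median of the genes kept its sign under all 24 alternatives in 10 comparisons; the exceptions, among the tissue comparisons in dDC, are peritoneal cavity against spleen (22 of 24) and against thymus (21) and thymus against spleen (23, turned to -0.05 without thymus dDC 2). The share of counts rose to between 3.262 and 3.950% by group with -ps rows added and to between 4.459 and 5.4% with the 823 pseudogenes added. No paired analysis was run, because the labels name no pairs. Each dDC library carries the number after that of a control library of the same tissue, and whether these are pairs is not known. With 0 to 51 reads of Rpl39l in a library, depth limits what can be said of it, while Rps4l, with up to 271 reads, varied between libraries of a group (SD 2.132 on the log2 scale).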
